A study of Danio rerio with 8 samples.

Results

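The cells described here are cluster 1 (c1) of cells sorted for iridophore reporters from the skin of adult zebrafish. They are 194 of the 646 cells that the authors clustered (30.0%, exact Clopper-Pearson 95% interval 26.5 to 33.7%). Membership is the authors' own cluster assignment. c1 is described across all genes and set against the other clusters, c2 with 176 cells, c3 with 122, c4 with 82 and c5 with 72. The authors call c1, c3 and c5 iridophores and propose that c2 and c4 may hold cells that have not fully differentiated. The cells came from flank dermis of untreated fish carrying both pnp4a:palmmCherry and pnp4a:nlsEos, a membrane and a nuclear reporter of the iridophore gene pnp4a. Light skin (interstripes) and dark skin (stripes) were dissected and dissociated separately, single cells high in both reporters were sorted into plates, and 4 light and 4 dark plates were sequenced. All groups shared the reporters and the gate, so the cells were chosen by the activity of the pnp4a promoter, and pnp4a itself cannot tell the sort from the cell type. The fish of each dissociation were pooled.

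Iridophores are pigment cells that reflect light from stacked platelets of crystalline guanine, held in membrane-bound organelles. Guanine comes from purine synthesis and from purine nucleoside phosphorylases such as pnp4a. Iridophores arise from the neural crest, and transcription factors of the Alx, Sox and Mitf/Tfe families are known in their lineage. In zebrafish skin, dense iridophores cover the light interstripes and loose iridophores lie over the melanophores of the dark stripes.

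The deposited table gives values per cluster, with the cells of all plates together. Hence the light or dark origin of the cells of c1, and the spread between plates or fish, could not be read from it, and the mixed origin ascribed to c1 was not checked. Each level below is the mean, over all cells of a cluster, of the natural log of the corrected transcript count plus 1, with cells lacking the transcript at 0, and ± is the SD over cells. Because the clusters were drawn from these same values, no test between clusters was made and a difference is a description of these cells. Intervals on shares of cells are exact Clopper-Pearson 95% intervals and cover counting error only.

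An average cell of c1 held 788.8 detected features, against 739.6 in c2, 846.1 in c3, 1395.5 in c4 and 815.0 in c5. The cells of c4 thus held more features than the others. Over the features in at least 10% of a cluster's cells, the median level within cells with the transcript was lowest in c4. It was 1.31 there, 2.54 in c1, 1.80 in c2, 2.43 in c3 and 2.58 in c5. The sets of features behind these medians differed, with 2366 in c4 and 1336 in c1. In c1, 18991 of 19914 features were found in at least 1 cell, 1336 in at least 10% of cells, 157 in at least 50%, and 3 in all 194 cells. A transcript found in no cell of c1 could still be present in up to 1.55% of such cells, the share that 3 cells would make, or 1.88% by the exact 95% interval.

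The markers of iridophores were high in c1. lypc, which encodes a Ly6 family protein, was found in all 194 cells at 6.40 ± 0.30. Its level was 4.18 ± 1.60 in c2, 5.38 ± 0.60 in c3, 5.17 ± 0.49 in c4 and 5.75 ± 0.83 in c5. c1 thus had the highest lypc level of the 5 clusters, and its interval of 1 SD did not overlap that of c2, c3 or c4. apoda.1, an apolipoprotein D gene, stood at 5.25 ± 1.15 in c1. Its level was 2.87 ± 1.75 in c2, 5.00 ± 1.15 in c3, 3.64 ± 1.21 in c4 and 5.41 ± 0.80 in c5. For apoda.1, c1, c3 and c5 lay within 1 SD of each other, and c2 and c4 were lower.

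gpnmb, a membrane glycoprotein of pigment organelles, was found in 91.2% (86.3 to 94.8%) of c1 cells at 3.33 ± 1.72, next to 3.70 in c3, 3.15 in c5, 1.92 in c4 and 1.80 in c2. pnp4a, the purine nucleoside phosphorylase whose promoter drove the sort, was found in 79.4% (73.0 to 84.8%) of c1 cells at 2.91 ± 1.96, next to 2.86 in c3, 2.75 in c5, 1.87 in c4 and 1.55 in c2. In both genes the order was the same for the lower end, with c4 and c2 below c1, c3 and c5, while the latter 3 differed by less than the SD over cells. The homeobox gene alx4b was found in 40.2% (33.2 to 47.5%) of c1 cells and reached 1.13 ± 1.64 there, 0.90 in c3, 0.88 in c4, 0.75 in c5 and 0.46 in c2. Its paralog alx4a was found in 55.2% (47.9 to 62.3%) of c1 cells at 1.58 ± 1.77, below the 2.17 of c3 and next to the 1.45 of c5. The paralogs were thus ordered differently: alx4b was highest in c1 and alx4a in c3.

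**Figure D1:**
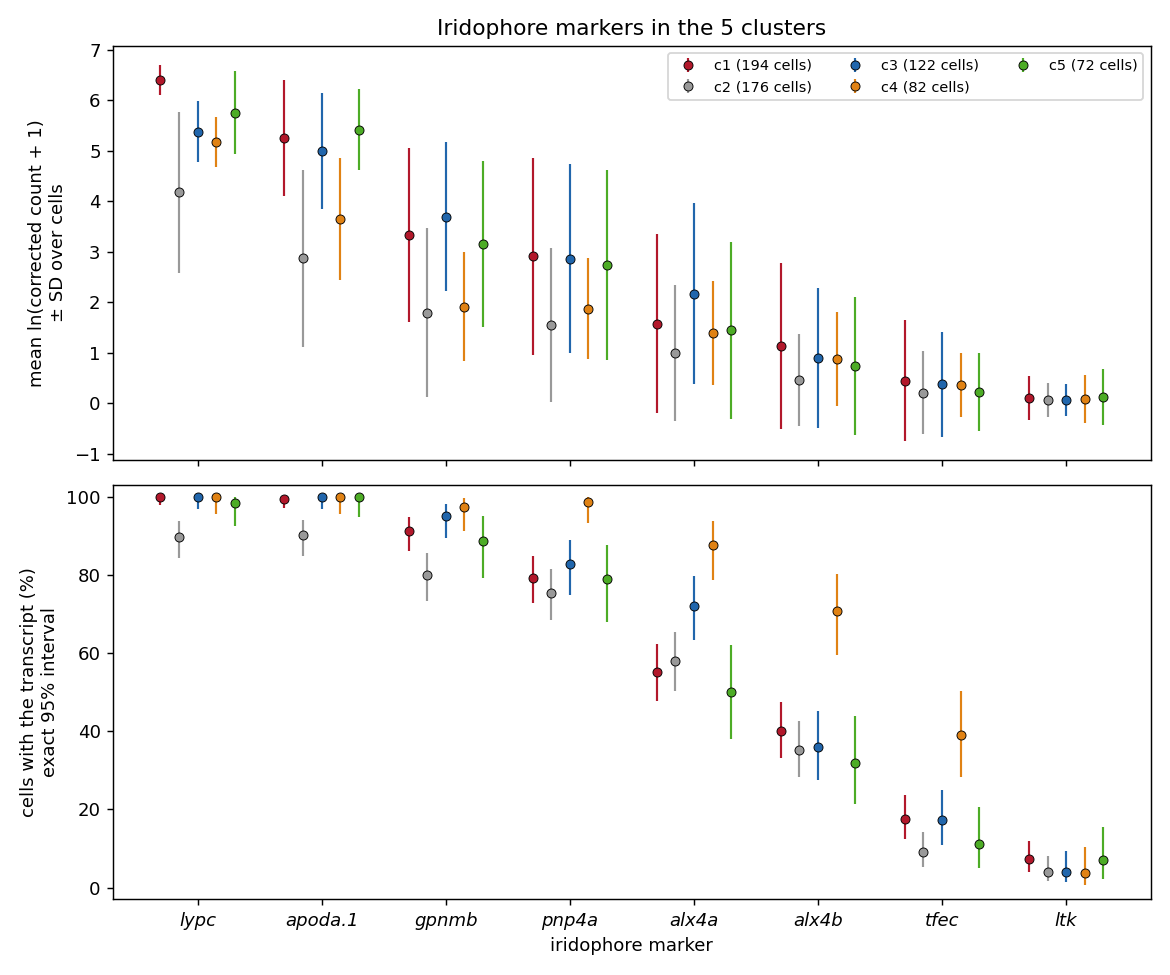
Level (upper panel, mean natural log of corrected count plus 1 ± SD over cells) and share of cells with the transcript (lower panel, percent with exact 95% intervals) of 8 iridophore markers in the 5 clusters. lypc is highest and least spread in c1, at 6.40 ± 0.30, while gpnmb and pnp4a lie within 1 SD of each other in c1, c3 and c5 and have their lowest means in c2 and c4.

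Regulators of the lineage were scarcer. tfec, a basic helix-loop-helix factor expressed in the iridophore lineage, was found in 17.5% (12.5 to 23.6%) of c1 cells, 17.2% (11 to 25.1%) of c3 cells and 11.1% (4.92 to 20.7%) of c5 cells. ltk, the receptor tyrosine kinase required for iridophores, was found in only 14 cells of c1, or 7.22% (4.0 to 11.8%). sox10, the neural crest transcription factor, was found in 23.2% (17.5 to 29.8%) of c1 cells, at 0.54 against 0.88 in c5. In c4, where cells held more features, tfec was found in 39.0% and sox10 in 57.3% of cells. In c2 the shares were 9.09% and 27.3%, and sox10 was in 20.5% of c3 cells. Thus tfec, ltk and sox10 were each detected in a minority of c1 cells, whereas lypc and apoda.1 were in nearly every cell.

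Markers of other skin cells were near 0 in c1. Of the 4 melanophore markers measured, none was in more than 2.58% of c1 cells, and their summed level was 0.11 in c1 and ranged from 0.05 to 0.24 over the other clusters. mitfa, which specifies melanophores, was found in 2 of 194 cells and tyrp1b, a melanin synthesis gene, in 1. The 6 xanthophore markers were in 1.03 to 6.70% of c1 cells and summed to 0.26, next to 0.24 in c3 and 0.18 in c5, and to 1.42 in c2 and 1.07 in c4. The pteridine synthesis gene gch2, for example, stood at 0.12 in c1 and 0.41 in c2. c1, c3 and c5 were thus alike in the low sum of these markers. The 5 fibroblast markers summed to 0.12 in c1 against 0.62 in c2 and 0.73 in c4, and the 5 keratinocyte markers to 0.17 against 0.36 and 0.57. Schwann or neural crest progenitor markers summed to 0.42 in c1, 0.43 in c3 and 0.86 in c5, in a range of 1.03 to 8.25% of c1 cells for the 5 genes. Immune markers summed to 0.28 and endothelial markers to 0.11, 1 erythrocyte marker was in 1.03% of cells, and of 4 muscle markers 1 was in no cell and the highest in 2.58%. No marker of these short panels reached 10% of c1 cells. The longer gene lists for the same types did hold such members: 1 of 14 melanophore genes (trpm1b, 69.6%), 3 of 17 keratinocyte genes (led by icn, 70.6%, and anxa1a, 66.5%), 3 of 31 fibroblast genes (led by sparc, 36.1%), 4 of 18 xanthophore, 2 of 19 neural crest, 2 of 21 muscle (led by ttn.1, 27.3%) and 1 of 21 immune genes.

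Besides the markers, the most abundant transcripts of c1 were those of signalling scaffolds, small secreted proteins, ribosomes and the cytoskeleton. The highest feature, ENSDARG00000080337, was found in all cells of every cluster, at 8.16 ± 0.46 in c1. Its symbol in the table is the name of the mitochondrial genome sequence, although the study's methods state that mitochondrial features were removed. After lypc came CR383676.1 (malat1 in the reference names, a nuclear noncoding RNA) at 6.31 ± 1.63. akap12a, a scaffold that anchors protein kinase A, followed at 5.36 ± 1.38, next to 6.04 in c3 and 5.24 in c5. defbl1, a beta-defensin-like gene, was found in 98.5% (95.5 to 99.7%) of c1 cells at 4.89 ± 1.36, next to 4.47 in c3 and 4.85 in c5. So these products were shared with c3 and c5 and were lower in c2, at 3.41 for akap12a and 2.38 for defbl1.

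fhl2a, a LIM domain protein gene, reached 4.58 ± 1.93 in c1, against 1.81 in c2, 3.62 in c3, 2.54 in c4 and 5.21 in c5. Another LIM gene, zgc:101840 (CRIP2 in the reference names), reached 3.49 ± 1.78 in c1, 3.71 in c3 and 3.02 in c5. Of the pair, fhl2a had its highest mean in c5 and zgc:101840 in c3. Both are abundant in c1, c3 and c5. The galectin gene lgals2a stood at 4.05 ± 2.05, between 5.05 in c3 and 3.18 in c5. myo5b, an unconventional myosin of vesicle transport, stood at 3.15 ± 2.0, and sytl2b, a synaptotagmin-like protein of secretory granules, at 3.02 ± 1.95. Of the 25 most abundant features of c1, 5 encoded cytosolic ribosomal proteins and 13 were in at least 90% of cells. The levels of 23 of these 25 were higher in c1 than in c2 and of 24 higher than in c4. Against c3, 9 were higher in c1, and against c5, 15. Over all features compared below, the mean was higher in c1 for 1199 of 1430 against c2 and 735 of 2383 against c4. It was higher for 682 of 1598 against c3 and 661 of 1706 against c5. The 25 were picked for their level in c1, which favours a higher mean in c1, so their counts are a description.

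The SD over the cells of c1 was small for some abundant transcripts and large for others. Among the 157 features in at least 50% of cells, 50 had an SD over cells larger than their mean. Features in under 50% of cells must have such an SD, since cells without them count as 0. lypc had the smallest SD (0.30) of all features in at least 95% of cells, followed by ENSDARG00000080337 with 0.46. apoda.1 (SD 1.15) and defbl1 (SD 1.36) were also among the 10 least spread of those features. The rest of these were RPL41, cldn17, zgc:158564, CT956002.2, BX324216.3 and CU929418.1. In the other direction, the largest SDs over cells were those of ptmab, which encodes prothymosin alpha, at 2.55 ± 2.13, and of the AP-1 gene fosab, at 2.83 ± 2.12. fosab was found in 83.0% (76.9 to 88.0%) of c1 cells and had a mean of 3.41 within those cells. phlda2, a pleckstrin homology-like domain gene, was found in 51.5% (44.3 to 58.8%) of cells at a mean of 3.19 within them, so that c1 held cells with much phlda2 and cells with none detected. lgals2a and prx, which encodes periaxin, were also among the 10 most spread, with SDs of 2.05 and 2.06. The rest of these 10 were si:dkey-204f11.64, ppiaa and the ribosomal protein genes rpl7, rpl19 and rps9. How much of the spread comes from count sampling was not tested.

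**Figure D2:**
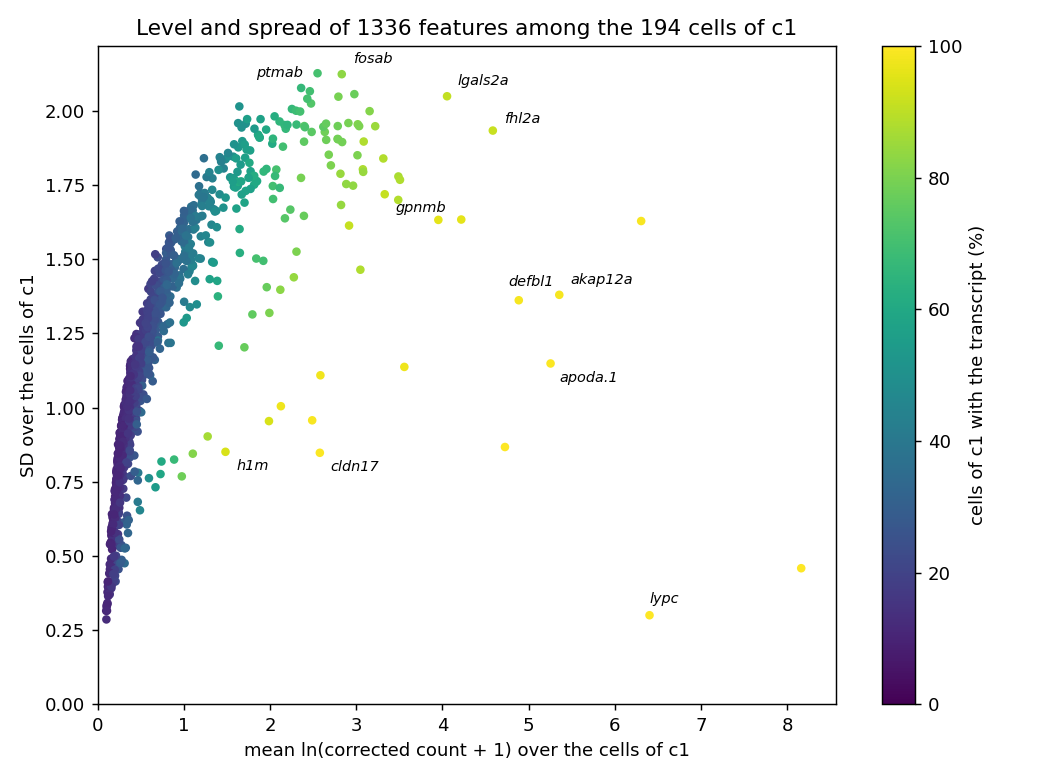
Mean level in c1 (x axis, natural log of corrected count plus 1) against the SD over its 194 cells (y axis) for the 1336 features found in at least 10% of c1 cells, coloured by the percent of cells with the transcript. lypc lies far to the right with an SD of 0.30, while fosab and ptmab have the largest SDs, above 2.1.

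Few genes set c1 apart from all other clusters. A gene was counted when its level in c1 exceeded the highest other cluster, or fell short of the lowest other, by at least 0.25, among features in at least 10% of cells of any cluster. Only 4 of 2582 features were above every other cluster (0.155%), and 1 was below every other (0.0387%). The 4 were lypc, 0.65 above its next cluster, and the large ribosomal subunit genes rplp2, rpl8 and rpl9, with margins of 0.27, 0.26 and 0.26. alx4b followed just short of the limit, with a margin of 0.23, then atp6v1e1b, a subunit of the proton pump of acidic organelles, with 0.21. These margins were small next to the SD over cells, which was 1.46 for rplp2, 1.64 for alx4b and 1.29 for atp6v1e1b in c1. By share of cells none of these stood out, and c4 held rplp2, rpl8, rpl9, alx4b and atp6v1e1b in a larger share of cells than c1. rpl8, for example, was found in 87.6% of c1 cells and 100% of c4 cells. parvaa, an adaptor of integrin adhesions, had a margin of 0.15 and was found in 10.8% (6.83 to 16.1%) of c1 cells and in at most 5.56% of any other cluster. It passed the filter through c1 only and was picked for its margin, so its larger share in c1 is a description of these cells.

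The gene below every other cluster was marcksl1b, a MARCKS-like substrate of protein kinase C. It stood at 0.41 ± 1.11 in c1 and at 0.80 ± 1.51 in c2, 0.68 ± 1.49 in c3, 0.86 ± 1.04 in c4 and 0.69 ± 1.4 in c5. The share of cells with marcksl1b was 16.0% (11.1 to 21.9%) in c1, 22.1% (15.1 to 30.5%) in c3 and 35.8% (28.7 to 43.4%) in c2. Among these clusters the lowest share was in c1, with an interval that overlapped that of c3. atp2b2, a calcium pump gene (atp2b4 in the reference names), came next at 0.15 below its lowest other cluster, then amotl2a, an angiomotin-like gene, at 0.14. With levels taken relative to each cluster's median, no gene was counted as below every other cluster, marcksl1b included.

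Against c2, c1 had higher levels of iridophore products. fhl2a showed the largest difference, at 2.77, followed by zgc:101840 at 2.55, defbl1 at 2.50, apoda.1 at 2.38 and lypc at 2.23. lypc was missing from 18 of 176 cells in c2 and from none of 194 in c1. A feature was counted as higher or lower when its mean differed by at least 0.5, among features that reached 10% of cells on one side or the other. Features with a mean below 0.5 in both clusters could therefore not be counted. Of 1430 features, 150 were higher in c1 (10.5%) and 25 lower (1.75%), and the median difference of all 1430 was 0.18 in favour of c1. With differences taken relative to that median, 76 were higher and 39 lower, and counted instead by share of cells, at 10 percentage points, 80 were higher and 116 lower. Of the 150 higher genes, 72 were also found in a larger share of cells in c1, beside 852 of all 1430 features.

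Of the 13 iridophore identity genes that passed the filter against c2, 9 were higher in c1, with a median difference of 1.36 beside 0.18 for all features. That list was written from genes known in iridophores and includes genes that the study named from these cells, so its direction is not independent evidence. Cytosolic ribosomal proteins were the other large group, with 40 of 83 higher and none lower, at a median of 0.49. rplp2, for example, stood at 3.05 ± 1.46 in c1 and 1.97 ± 1.54 in c2, while its share of cells was 88.1% and 89.2%. Of these 40 genes, 10 were found in a larger share of c1 than of c2 cells, beside 852 of all 1430 features. Their difference thus lay mostly in the level within cells. Among actin cytoskeleton genes, 9 of 39 were higher, beside the same 150 of 1430 and 148 of 471. They included fhl2a, given above, and actb2, a beta-actin gene, at 3.95 ± 1.63 against 2.48 ± 1.79. The filamin gene flnb and the tropomyosin gene tpm1 were the 2 counted as lower. All 42 oxidative phosphorylation genes that passed had a higher mean in c1, as did 1199 of all 1430 features. Their median of 0.21 was close to the 0.18 of all features. Only atp5po was counted, higher by mean but found in 30.9% of c1 and 34.7% of c2 cells.

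The features lower in c1 than in c2 were largely those that were highest in c4. Of the 25, 24 were highest in c4 and next highest in c2, and for these the median level was 0.66 in c1, 1.68 in c2, 0.84 in c3, 3.42 in c4 and 0.48 in c5. zgc:158564 (KIAA0232 in the reference names) was the largest, at 2.12 ± 1.00 in c1 and 3.50 ± 1.22 in c2, although 97.4% of c1 cells had it. h1m, a linker histone gene, stood at 1.48 and 2.83, and cldn17, named for a tight junction claudin, at 2.58 and 3.56. These features do not belong to one known pathway. Features per cell were highest in c4 but lowest in c2, and whether depth or library quality plays a part was not tested.

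Against c4, the mean and the share of cells pointed in different directions. Of 2383 features, 71 were at least 0.5 higher in c1 by mean (2.98%) and 79 lower (3.32%), with a median difference of −0.08. Relative to that median, 84 were higher and 60 lower. But not 1 of the 71 was found in a larger share of c1 cells than of c4 cells, and over all 2383 features the share was larger in c1 for 24 only. CR383676.1 led the 71, at 6.31 ± 1.63 in c1 and 3.31 ± 0.84 in c4, then fhl2a at 2.04, defbl1 at 1.75 and apoda.1 at 1.61. apoda.1 was found in 99.5% of c1 and all of c4 cells, so c4 held this transcript at a lower corrected level per cell. Iridophore identity genes were higher in c1 for 7 of 14 and lower for none, at a median of 0.53, and ribosomal proteins for 26 of 85, at a median of 0.31. Among the 79 lower features were the sarcomere genes ttn.1, at 0.31 in c1 and 1.92 in c4, ttn.2 (also lower than in c2) at 0.17 and 1.72, and neb at 0.06 and 0.63. The muscle markers summed to 0.10 in c1 and 0.19 in c4. Counted by share of cells, at 10 percentage points, 1 feature was higher in c1 and 1691 lower, so a gene given as higher in c1 than in c4 was higher by mean only.

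Against c3, c1 differed in few genes by mean level. Of 1598 features, 8 were higher in c1 (0.501%) and 34 lower (2.13%), with a median difference of −0.03. By share of cells 17 were higher and 146 lower. The 8 were lypc at 1.02, fhl2a at 0.97, phlda2 at 0.86, the water channel gene aqp1a.1 at 0.62, ptmab at 0.60, the membrane glycoprotein gene gpm6ab at 0.57, the LIM gene crip1 at 0.56 and the cation channel gene trpm1b at 0.55. phlda2 was found in 51.5% (44.3 to 58.8%) of c1 cells and 32.0% (23.8 to 41.0%) of c3 cells. aqp1a.1 was found in 35.1% (28.4 to 42.2%) and 17.2% (11 to 25.1%). For both the intervals on the shares did not overlap. trpm1b was found in 69.6% (62.6 to 76.0%) and 60.7% (51.4 to 69.4%), with overlapping intervals. These genes were picked for their difference in mean, so the overlap or lack of it is a description and not a test.

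The 34 genes lower in c1 than in c3 were led by rgs4, lgals1l1, plecb, lgals2a, wnk1b and rdh5. None of the 34 was in a larger share of c1 cells, beside 612 of all 1598 features. rgs4, a brake on G protein signalling, was found in 17.0% (12.0 to 23.1%) of c1 and 53.3% (44.0 to 62.4%) of c3 cells, at 0.59 and 1.81. The galectin gene lgals1l1 was found in 17.5% (12.5 to 23.6%) and 50.8% (41.6 to 60.0%), at 0.49 and 1.68. rdh5, a retinol dehydrogenase gene, was found in 19.6% (14.2 to 25.9%) and 49.2% (40.0 to 58.4%), at 0.58 and 1.45. In all 3 the transcript was present in a minority of c1 cells and in about 50% of c3 cells. The level within the cells that had it was 2.96 in c1 and 2.95 in c3 for rdh5, 3.45 and 3.40 for rgs4, and 2.78 and 3.31 for lgals1l1, so that lgals1l1 was also lower within those cells.

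Further genes of the 34 encode parts of the cytoskeleton and junctions. plecb, a plectin gene that links intermediate filaments, stood at 1.4 in c1 and 2.43 in c3, and myh10, a nonmuscle myosin heavy chain gene, at 0.89 and 1.68. tjp1a, which encodes the junctional scaffold ZO-1, stood at 0.53 and 1.21, with shares of 19.6% (14.2 to 25.9%) and 44.3% (35.3 to 53.5%). The intervals on these tjp1a shares did not overlap, which is again a description of a gene counted for its difference. Among intermediate filament and plectin genes 3 of 7 were lower in c1 than in c3 and none higher, with a median of −0.35 beside −0.03 for all features. The junction and adhesion list had 1 of 15 counted as lower, tjp1a. A lower mean in c1 was found for 14 of the 15, at a median of −0.13, and for 916 of all 1598 features. Of the 15, 12 were in at least 10% of c1 cells. The others passed through c3 only, which favours a lower mean in c1. jam3b, a junctional adhesion molecule gene, was 1 of the 14, at 0.66 in c1 and 1.14 in c3. csf1a, a ligand of the receptor that xanthophores depend on, stood at 0.85 and 1.53 and was counted as lower.

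Against c5, early response genes were lower in c1. Of 1706 features, 11 were higher in c1 (0.645%) and 61 lower (3.58%), with a median difference of −0.05. By share of cells 54 were higher and 147 lower. Of 34 immediate early genes that passed, 16 were lower in c1 and none higher, at a median of −0.45 beside −0.05 for all features. Of the 34, 28 were in at least 10% of c1 cells. The others passed through c5 only, which favours a lower mean in c1. The list was chosen with earlier results of these data known, so its direction is a description. fosab stood at 2.83 ± 2.12 in c1 and 5.23 ± 1.78 in c5, and its AP-1 relative fosb at 0.79 ± 1.41 and 2.97 ± 1.97. The share of cells with fosb was 29.9% (23.5 to 36.9%) in c1 and 77.8% (66.4 to 86.7%) in c5. So both the share and the level were lower in c1. jun was found in 44.8% (37.7 to 52.1%) and 66.7% (54.6 to 77.3%), and junbb in 36.6% (29.8 to 43.8%) and 65.3% (53.1 to 76.1%). btg2, which restrains proliferation, stood at 1.08 and 2.33, and socs3a, a feedback inhibitor of cytokine signalling, at 1.06 and 2.41. Set against c3, the same list had 1 of 32 counted as higher, phlda2, and none as lower, at a median of −0.07. The chaperone and heat shock list had none of 21 counted in either direction against c5, at a median of −0.03.

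**Figure D3:**
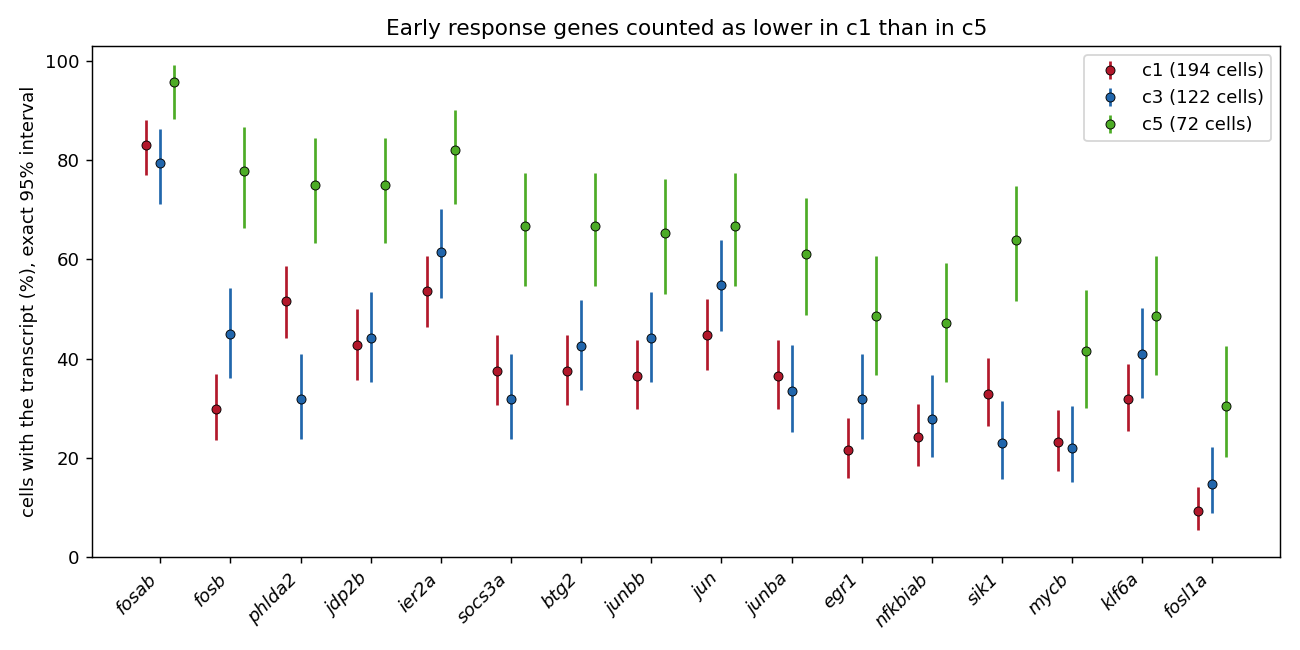
Percent of cells with the transcript (y axis, exact 95% intervals) in c1, c3 and c5 for the 16 early response genes at least 0.5 lower in c1 than in c5, in order of that difference. Every gene is in a larger share of c5 than of c1 cells, and the intervals of c1 and c3 overlap for all but phlda2. The genes were picked for their lower mean in c1, so the larger share in c5 is a description. None of the 61 features counted as lower than in c5 is in a larger share of c1 cells, beside 628 of all 1706 features.

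Other genes were lower in c1 than in c5 as well. xbp1, a transcription factor of the secretory stress response, stood at 0.79 and 1.71, and atf4b, of the amino acid stress response, at 1.19 and 2.16. igfbp1a, which binds insulin-like growth factors, stood at 0.61 and 1.55. The retinol dehydrogenase gene rdh10a was found in 18.6% (13.3 to 24.8%) of c1 and 40.3% (28.9 to 52.5%) of c5 cells. The receptor tyrosine kinase gene ret stood at 1.48 and 2.11, and the catenin gene ctnnb1, of adherens junctions and Wnt signalling, at 0.45 and 1.01. pleca, a plectin gene, and krt8, a simple epithelial keratin gene, were lower too, at 2.03 against 2.87 and 2.36 against 2.92. Thus the 61 included stress factors, a receptor and filament genes beside the early response genes. Several ubiquitin genes (ubb, UBB and ubc) were among them too, and reads of these near-identical copies may have been divided between them.

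The 11 genes higher in c1 than in c5 were all found in a larger share of c1 cells, as were 628 of all 1706 features. lgals2a led, at 4.05 ± 2.05 in c1 and 3.18 ± 1.99 in c5, followed by CT027638.1 (si:dkey-153m14.1 in the reference names) at 1.86 and 1.05. zgc:110699 was found in 46 of 194 cells in c1, or 23.7% (17.9 to 30.3%), and in 0 of 72 in c5, which allows a share of up to 4.17% at 3 cells and 4.99% by the exact interval. rgs16, another regulator of G protein signalling, was found in 32 cells of c1, or 16.5% (11.6 to 22.5%), and likewise in 0 of 72. zgc:110699 and rgs16 passed the filter through c1 only, so their count of 0 in c5 is a description of these cells. rgs4 was found in 17.0% (12.0 to 23.1%) of c1 and 2.78% (0.338 to 9.68%) of c5 cells, and rdh5 in 19.6% (14.2 to 25.9%) and 2.78% (0.338 to 9.68%). Both of these genes also passed through c1 only, so their low shares in c5 are likewise a description. lypc, the thymosin gene tmsb4x, the cyclin gene ccng1, rpl8 and ndufa4l, of the respiratory chain, completed the 11, with differences of 0.65, 0.56, 0.53, 0.52 and 0.50.

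Where c3 and c5 differed most, c1 lay between them for some genes and with c3 for others. The 10 genes with the largest difference in favour of c3 and the 10 in favour of c5 were taken, without use of c1. For all 10 genes higher in c3, c1 lay between, and for 9 of them it was nearer to c5. For the 10 genes higher in c5, c1 lay between for 5 and nearer to c3 for 9. Genes picked for their distance leave more room for c1 between them, so this count is a description. fosab, fosb, jdp2b, ier2a and si:ch73-335l21.4 were the 5 for which c1 lay outside, and in each c1 was lower than c3, by at most 0.35. fhl2a was the gene of c5 for which c1 was nearer to c5, at 4.58 with 5.21 in c5 and 3.62 in c3. zgc:110699 was the gene of c3 for which c1 was nearer to c3. c1 thus lay nearer to the lower of the pair in 9 of each 10.

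**Figure D4:**
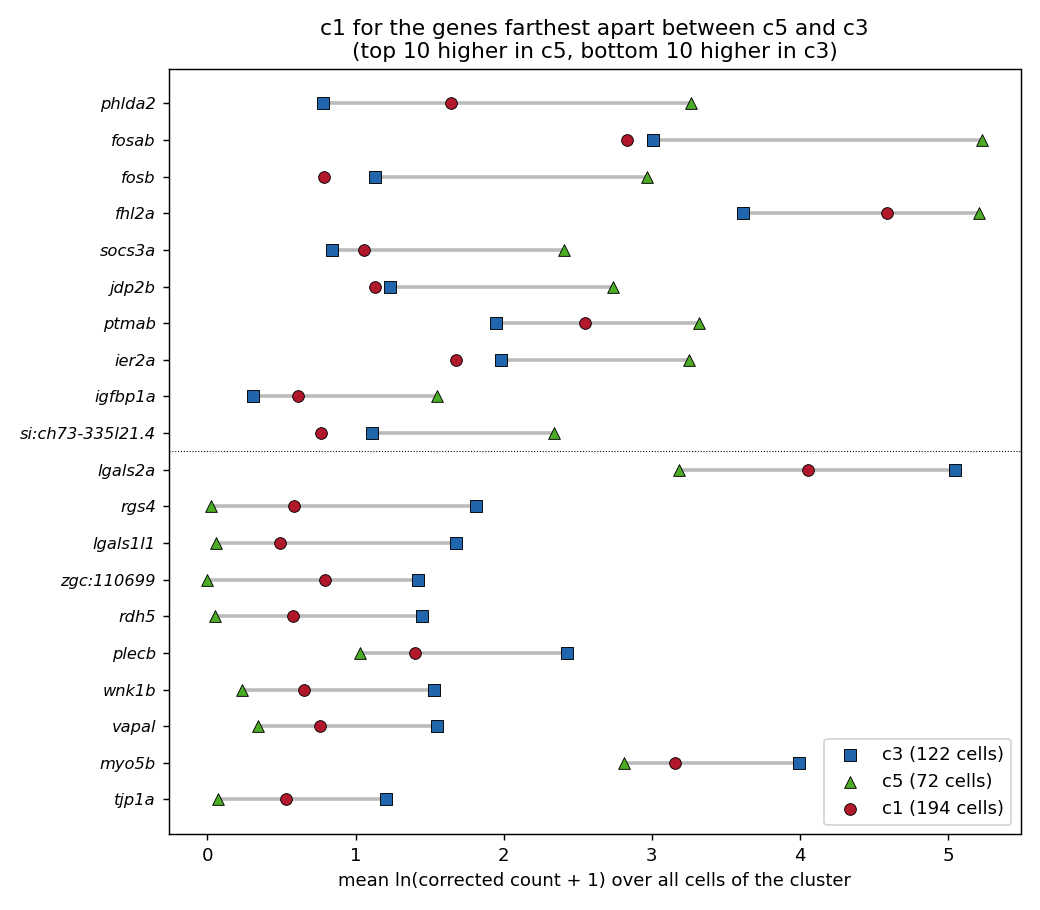
Mean natural log of corrected count plus 1 (x axis) in c1, c3 and c5 for the 10 genes that most favour c5 over c3 and the 10 that most favour c3 over c5, with a grey line from c3 to c5. In the upper 10, c1 is nearer to c3 for 9, and in the lower 10 it is nearer to c5 for 9.

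Purine genes were detected at low levels in c1 apart from pnp4a. In de novo synthesis, atic, which closes the purine ring, was found in 21.1% (15.6 to 27.6%) of c1 cells at 0.61, and gmps, the last enzyme of GMP synthesis, in 32.5% (25.9 to 39.6%) at 0.61. Their levels were 0.34 and 0.35 in c3, and 0.33 and 0.87 in c5. Against c3, 6 of the 7 de novo genes that passed had a higher mean in c1, at a median of 0.17 beside −0.03 for all features. None was counted, and 682 of all 1598 features had a higher mean. adsl, in 10.8% of c1 and 7.38% of c3 cells, passed through c1 only, which favours a higher mean in c1. Of the 7, 6 were in at least 10% of c1 cells, and the other passed through c3 only. Against c5, 4 of 6 had a higher mean in c1, at a median of 0.04. Over all features 661 of 1706 had a higher mean, at a median of −0.05. In the salvage list, pnp4a was the only gene counted, higher than in c2 and c4, and adka, the adenosine kinase gene, stood at 0.51 in c1, 0.19 in c3 and 0.63 in c5. mthfd2 and mthfd1l, which supply one-carbon units, stood at 0.62 and 0.46 in c1, and no folate gene was counted in any comparison.

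Few genes of pigment organelles were counted against c3 or c5, as was the case for all features. Against c5 none of 14 organelle genes was counted, at a median of 0.00, and against c3 only myo5b, lower at −0.84. Of all features, 0.645% were higher and 3.58% lower than in c5, and 0.501% higher and 2.13% lower than in c3. dtnbp1a, a subunit of a complex that sorts cargo to pigment organelles, was found in 32.0% (25.5 to 39.0%) of c1 cells, and rab32a, a GTPase of the same route, in 23.7% (17.9 to 30.3%). Subunits of the vacuolar ATPase had 7 of 26 members in at least 10% of c1 cells, led by atp6v0e1 in 53.1% (45.8 to 60.3%), and none was counted in any comparison. Lysosome genes were counted once, for the protease gene lgmn, at 1.33 in c1 and 0.70 in c2.

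Of the G protein and cAMP genes, the anchors akap12a and akap12b were higher by mean in c1 than in c2 and c4, and akap12a was lower than in c3, at −0.68. akap12b stood at 2.40 ± 1.94 in c1, 2.02 in c3 and 2.75 in c5. The alpha-2 adrenergic receptor gene adra2b was found in 8.25% (4.79 to 13%) of c1, 15.6% (9.64 to 23.2%) of c3 and 4.17% (0.868 to 11.7%) of c5 cells. sik1, a kinase gene known to be induced by cAMP, stood at 0.82, 0.40 and 1.53 in the same order and was lower in c1 than in c5. Of the regulators of G protein signalling, 3 of 21 were in at least 10% of c1 cells, namely rgs4, rgs16 and rgs3a. Their list held 4 genes that passed against c3, all with a lower mean in c1, as had 916 of all 1598 features. Among them rgs8, in 6.70% of c1 and 13.9% of c3 cells, passed through c3 only, which favours a lower mean in c1. Against c5, 3 of 4 had a higher mean in c1, as had 661 of all 1706 features, and rgs4 and rgs16 passed there through c1 only. The G protein subunit genes gnb1a and gnb1b were higher than in c2, at 0.56 and 0.69. No opsin of 30 reached 10% of cells in any cluster.

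The groups shared by most cells showed less. Translation factors had 3 of 24 higher than in c2, among them eef1a1l1, and 1 of 31 lower than in c3, eif1b, which is near the shares of all features (10.5% and 2.13%). Of the 22 splicing factors, 7 proteasome subunits, 16 solute carriers and 5 collagens that passed against c2, 0, 0, 1 and 1 were higher. The share over all features was 10.5%. The solute carriers had 2 lower than c4, slc6a17 and slc9a6a, and these 4 lists had no other member counted in any comparison. In the chaperone list hspa8 was higher than in c2 and hsp90ab1 higher by mean than in c4, and in oxidative phosphorylation ndufa4l was higher than in c5. Of 30 early response genes that passed against c2, 4 were higher, near the 10.5% of all features: fosab, ier2a, phlda2 and id1. Against c4, 1 of 35 was higher, fosab, near the 2.98% of all features. By share of cells fosab was lower in c1 (83.0%) than in c2 (90.3%) and c4 (100%), and ier2a lower in c1 (53.6%) than in c2 (63.6%). Among microtubule genes, tubb4b, a tubulin gene, was higher by mean than in c2 and c4 but in a smaller share of cells than in c4 (84.5% and 100%), at 3.08 ± 1.79 against 1.61 and 2.09. Proliferation genes were scarce, with mki67 in 2.58% (0.842 to 5.91%) of c1 cells and pcna in 5.15% (2.50 to 9.28%), and hmgb2a, a chromatin protein gene, was the only one counted, higher than in c2. In the list of defence and secreted proteins, b2ml, spock3 and ponzr1 were higher than in c2 beside lypc, apoda.1 and defbl1, while ponzr1 and the protease inhibitor gene cst3 were lower than in c3. The lists of xanthophore, keratinocyte, fibroblast, neural crest and immune genes had no member counted in any comparison. Endothelial and erythrocyte genes had no member in 10% of cells on either side. The single melanophore list member that passed, trpm1b, was higher than in c2 and c3.

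**Figure D5:**
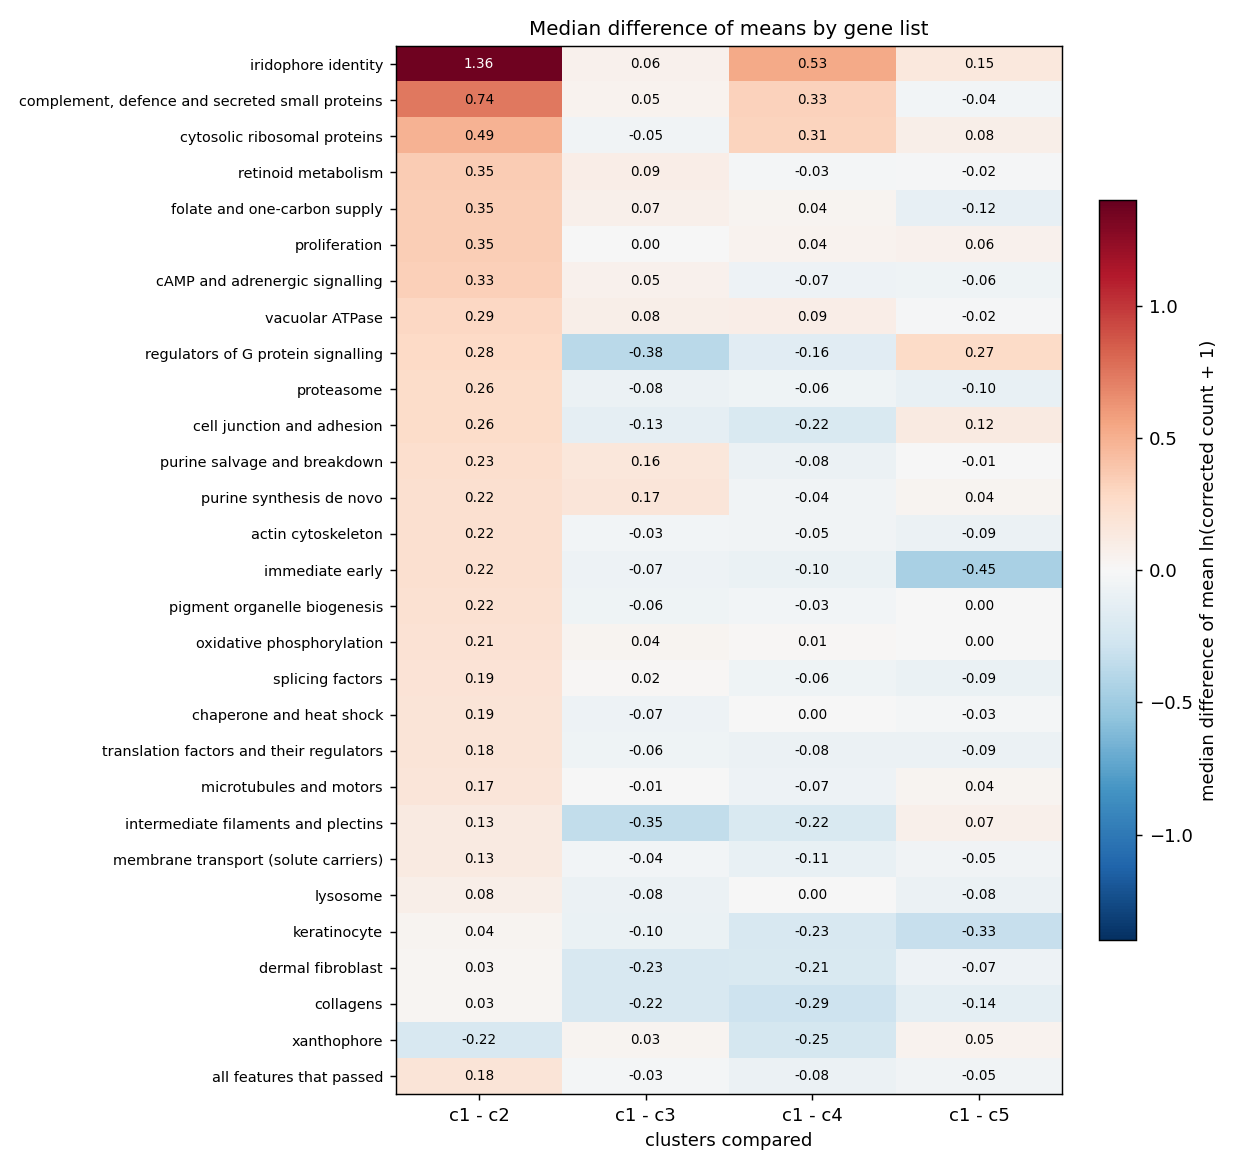
Median difference of mean natural log of corrected count plus 1 between c1 and each other cluster (columns) for each gene list with at least 3 members that passed the filter in every comparison (rows), with all features that passed at the bottom. The largest median is that of iridophore identity genes against c2 (1.36), and the lowest is that of immediate early genes against c5 (−0.45).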

How the data were processed

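Single cells from 4 light and 4 dark plates were sequenced with unique molecular identifiers on transcript ends. The authors counted reads with STARsolo on GRCz11, kept cells by limits on features and counts, normalized them with SCTransform in Seurat and clustered them. No doublet caller is named, and cells were sorted singly. The deposited table gives, per cluster and for 19914 features, the cell number, the percent of cells in which the feature was found, and, over those cells, the mean and SD of natural log values. Plates are pooled in it. The authors' comparison of c5 with c3, with fold changes and p-values, was not used.

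Means and SDs over all cells were rebuilt from these columns (Python 3.11.15, pandas 2.3.3, scipy 1.17.1), which was tested on simulated data. Of the gene IDs, 18929 were found in the reference names. Features passed when 10% of the cells on one side had them. The 35 gene lists and the members were chosen with earlier results of these data known. Pattern matches that did not belong to a list were removed. Genes were named as markers, most abundant, most or least spread, farthest from each or all other clusters, or leading a list. Further genes were named after their values were seen.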

Additional observations from a re-analysis of the deposited data

How the results depend on the processing

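No paired analysis was possible because the table pools all plates within a cluster. With no filter on the share of cells, all 10 counts were as reported. With a minimum share of 25%, 9 of the 10 stayed within 1.5 times, and genes higher than c5 went from 11 to 7, with fewer genes left to count. Relative to the median difference, genes higher than c2 went from 150 to 76 and lower from 25 to 39, genes higher than c5 from 11 to 17, and marcksl1b was no longer below every other cluster (0 genes). Counted by share of cells, at 10 percentage points, 80 genes were higher and 116 lower than c2, 17 and 146 than c3, 1 and 1691 than c4, and 54 and 147 than c5, while 0 were above and 5 below every other cluster. The pooled cells leave the spread between plates and fish unknown, and the corrected counts hide the depth per cell.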
